A study of Homo sapiens with 12 samples.

Results

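The members of the ERBB receptor family and 3 genes studied with it were followed through single-cell RNA-seq (scRNA-seq) of 3 cell lines of squamous carcinoma of the head and neck (HNSCC). The 7 genes were the receptors EGFR, ERBB2, ERBB3 and ERBB4, the inhibitors ERRFI1 and LRIG1, and LRIG3, the paralogue of LRIG1. They were chosen by name out of 33514 gene symbols, and all 7 were among the 17897 genes with enough counts to be tested. SCC1, SCC6 and SCC25 are established lines sensitive to cetuximab, a monoclonal antibody that binds EGFR. Each line received 100 nM cetuximab daily for 5 days (treated) or PBS (untreated), with 2 samples per line and treatment, 12 samples in 6 groups. In the labels, the groups of a line differed by treatment and replicate number alone. The labels do not say whether replicates 1 and 2 were separate cultures, so the p-values measure the spread between these samples, which may be technical.

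ERBB receptors are membrane tyrosine kinases that pair with one another. EGFR binds ligands of the EGF family, and ERBB3 and ERBB4 bind neuregulins. ERBB2 has no known ligand and is the favoured partner of the others, and ERBB3 has little kinase activity of its own and signals through the PI3K pathway once it is paired. ERRFI1 (also called MIG6) is a cytoplasmic protein that is induced by receptor signalling and binds and inhibits the active EGFR kinase. LRIG1 is a membrane protein that lowers ERBB receptor levels through the ubiquitin ligase CBL, and LRIG3 is its paralogue. Cetuximab blocks ligand binding to the EGFR protein, and the transcript levels measured here do not give the amount of receptor on the cell surface.

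The 12 samples held 23914 cells, between 961 and 2854 per sample, and between 57057402 and 112170073 UMIs (unique molecular identifiers, which count captured transcripts) per sample, with a median of 24078.5 to 54864 UMIs per cell. Of the 8 squamous markers, all were measured, with a summed level of 1025.8 to 12873 CPM (UMIs per 1000000 of the TMM-scaled library size), but KRT5 stood at 1.16 to 4.47 CPM and KRT14 at 0.424 to 2.52 CPM in the 4 SCC6 samples. The 8 markers of other cell types summed to 3.66 to 236 CPM, mostly CD68 and LUM, and the leukocyte marker PTPRC was at or near 0 in every sample. Between 3 and 10 cell barcodes were shared by replicates of a group, and 1 to 13 by samples of different groups. Non-cycling cells, with 2 or fewer UMIs over 10 cell cycle genes after each cell was thinned to 15000 UMIs, made up 14.5 to 71.1% of the cells of a sample and were more frequent after cetuximab in all 3 lines: 23.4 and 24.8% against 71.1 and 47.2% for SCC1, 24.1 and 14.5% against 40.0 and 29.1% for SCC6, and 23.2 and 45.2% against 46.6 and 67.3% for SCC25. Their part in the changes of the ERBB genes was examined only by repeating the comparisons in the non-cycling cells.

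The genes lie on 6 chromosomes of GRCh38.p14 in the RefSeq annotation. EGFR is at chr7:55019017-55211628, ERBB2 at chr17:39688094-39728658, ERBB3 at chr12:56080108-56103505, ERBB4 at chr2:211375717-212538802, ERRFI1 at chr1:8011727-8026309, LRIG1 at chr3:66378797-66501121 and LRIG3 at chr12:58872155-58920504. RefSeq promoter windows were matched for 6 of the 7 genes (not ERBB3). The 250 bases before the start of EGFR, the target of cetuximab, and of the 3 genes whose level moved with cetuximab in at least 1 fit are shown so that the promoters can be set against these levels. Each is written 5′ to 3′ on the strand of the gene, and capitals mark matches of 7 motifs on either strand: AP-2 (GCCNNNGGC, the motif of the TFAP2A factor examined by the study), GC box (GGGCGG), AP-1 (TGANTCA), CRE (TGACGTCA), E box (CACGTG), forkhead (GTAAACA) and ETS (CCGGAAG). The EGFR window is chr7:55018767-55019016 (+), that of ERBB2 chr17:39687844-39688093 (+), that of ERRFI1 chr1:8026310-8026559 (-) and that of LRIG3 chr12:58920505-58920754 (-). RefSeq gave a second window for EGFR, chr7:55109589-55109838 (+), and for LRIG3, chr12:58919506-58919755 (-), which are not shown.
EGFR: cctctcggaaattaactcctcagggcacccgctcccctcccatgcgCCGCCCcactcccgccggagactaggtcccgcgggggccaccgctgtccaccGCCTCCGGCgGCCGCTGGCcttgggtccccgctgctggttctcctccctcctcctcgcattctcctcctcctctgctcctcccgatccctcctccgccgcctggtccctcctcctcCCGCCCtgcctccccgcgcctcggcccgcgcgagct
ERBB2: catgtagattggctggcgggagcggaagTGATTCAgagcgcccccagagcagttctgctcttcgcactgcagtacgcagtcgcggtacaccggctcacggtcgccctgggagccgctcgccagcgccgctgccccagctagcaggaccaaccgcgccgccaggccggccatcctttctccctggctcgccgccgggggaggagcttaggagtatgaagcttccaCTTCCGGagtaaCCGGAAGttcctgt
ERRFI1: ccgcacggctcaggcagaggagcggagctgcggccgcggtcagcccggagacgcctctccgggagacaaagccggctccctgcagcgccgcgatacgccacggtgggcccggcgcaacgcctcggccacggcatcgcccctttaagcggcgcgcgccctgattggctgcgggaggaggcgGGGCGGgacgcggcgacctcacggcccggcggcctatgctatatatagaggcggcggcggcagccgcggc
LRIG3: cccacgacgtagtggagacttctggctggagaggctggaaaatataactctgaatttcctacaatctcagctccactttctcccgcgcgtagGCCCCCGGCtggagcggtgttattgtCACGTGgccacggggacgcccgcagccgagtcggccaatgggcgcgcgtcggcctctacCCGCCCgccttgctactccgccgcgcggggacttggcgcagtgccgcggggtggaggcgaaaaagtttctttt

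None of the 7 motifs was found in all 4 windows shown. The first EGFR window held 2 AP-2 matches, starting 152 and 142 bases before the gene, and 2 GC boxes. The second EGFR window held 2 AP-1 matches, at 232 and 136 bases, and no AP-2 match. The first LRIG3 window held 1 AP-2 match at 158 bases, 1 E box at 132 bases and 1 GC box at 73 bases, and the second held 0 matches. The ERBB2 window held no AP-2 match, but 1 AP-1 match at 222 bases and 2 ETS matches at 26 and 14 bases. It lies directly before the annotated gene start at chr17:39688094, and starts inside the ERBB2 gene were not scanned. The lack of an AP-2 match therefore holds for this window alone. ERRFI1, a gene induced by growth factors, had a single GC box at 70 bases in this window. Over all 34943 promoter windows of this length, AP-2 letters were found in 19.7%, the GC box in 42.5%, AP-1 in 6.59%, CRE in 1.63%, the E box in 6.32%, forkhead in 2.98% and ETS in 8.48%. A match is a run of letters and was not tested as a binding site. The GC-rich AP-2 and GC box motifs can overlap.

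EGFR was read in every sample of every line. In SCC1 it stood at 61.9 and 74.1 CPM in the untreated samples and at 65.6 and 80.4 CPM in the treated samples. In SCC6 the values were 103 and 85.5 CPM untreated and 84.6 and 88.2 CPM treated. In SCC25 they were 88.5 and 109.6 CPM untreated and 99.6 and 136.6 CPM treated. The treated and untreated values overlapped in all 3 lines, and SCC1 had the lowest untreated values.

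ERBB2, the ligandless partner, was higher after cetuximab in each pair of samples with the same replicate number. In SCC1 ERBB2 stood at 21.9 and 23.0 CPM untreated and at 30.9 CPM in both treated samples. In SCC6 it stood at 18.6 and 19.1 CPM untreated and at 24.3 and 26.3 CPM treated. In SCC25 it stood at 7.05 and 8.64 CPM untreated and at 8.34 and 11.2 CPM treated. The groups did not overlap in SCC1 and SCC6 and overlapped in SCC25, where ERBB2 was lowest throughout.

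ERBB3, the receptor that feeds PI3K signalling, had treated values on different sides of the untreated ones in the 3 lines. In SCC1 it stood at 22.1 and 21.0 CPM untreated and at 30.5 and 23.7 CPM treated. In SCC6 it stood at 19.5 and 21.8 CPM untreated and at 19.0 and 18.6 CPM treated. In SCC25 it stood at 8.28 and 10.2 CPM untreated and at 7.24 and 9.08 CPM treated. The treated values lay above the untreated ones in SCC1 and below them in SCC6, and the groups overlapped in SCC25. ERBB4, the neuregulin receptor typical of heart and brain, was close to absent: SCC1 held 7 UMIs over its 4 samples, SCC6 held 21 and SCC25 held 60, with at least 57057402 UMIs in every sample. Its highest sample, SCC25 treated replicate 2, held 31 of these UMIs.

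ERRFI1, the feedback inhibitor of the EGFR kinase, separated the replicates of untreated SCC6. In SCC1 it stood at 64.8 and 67.7 CPM untreated and at 68.2 and 64.2 CPM treated. In SCC6 it stood at 123 CPM in untreated replicate 1 and 41.2 CPM in untreated replicate 2, and at 26.3 and 27.5 CPM in the treated samples. In SCC25 it stood at 39.0 and 31.9 CPM untreated and at 29.1 and 44.5 CPM treated. Both treated SCC6 samples lay below both untreated ones, while the groups overlapped in SCC1 and SCC25.

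LRIG1, the inhibitor that acts through CBL, was nearly confined to SCC25 in these samples. Its counts were 62 and 41 UMIs in untreated SCC25 and 117 and 76 UMIs in treated SCC25, or 0.772 and 0.398 CPM untreated and 1.36 and 0.751 CPM treated. SCC1 held 8 LRIG1 UMIs over its 4 samples, and SCC6 held 0 in each of its 4 samples. Its paralogue LRIG3 was read in all lines and was higher in the treated samples of each. In SCC1 LRIG3 stood at 2.89 and 3.05 CPM untreated and at 4.21 and 3.70 CPM treated. In SCC6 it stood at 3.19 and 3.73 CPM untreated and at 8.56 and 8.29 CPM treated. In SCC25 it stood at 5.43 and 6.65 CPM untreated and at 9.36 and 7.69 CPM treated. Treated and untreated LRIG3 values did not overlap in any line. For this and the other statements on overlap above, the share of all genes without overlap was not counted. An exact permutation test of 2 samples against 2 cannot give a p below 0.333.

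**Figure D1:**
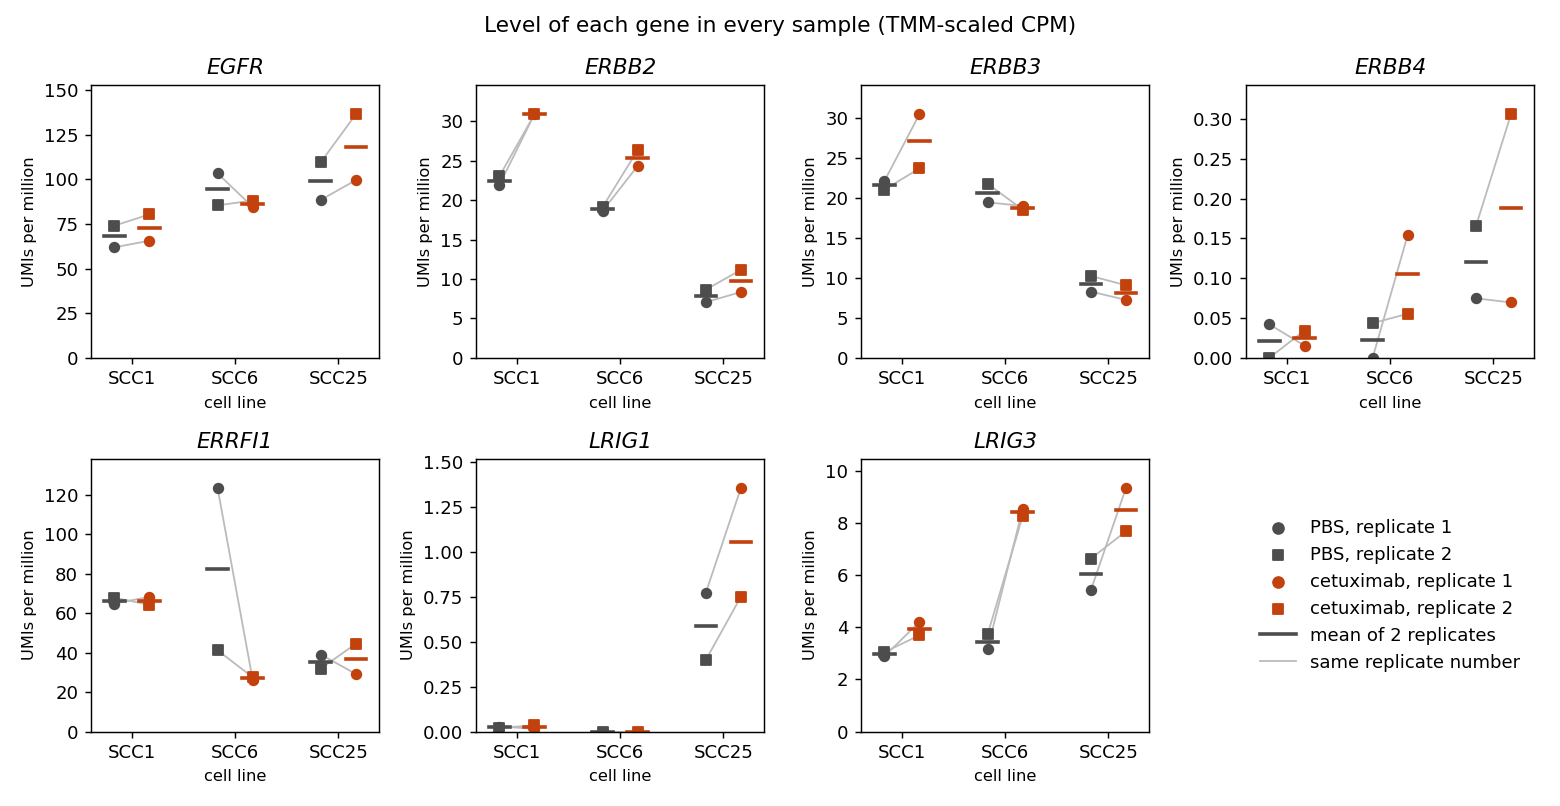
Level of each of the 7 genes, in CPM (y axis, from 0), in the 3 cell lines (x axis). Grey points are untreated and orange points treated samples, circles replicate 1 and squares replicate 2, bars the mean of 2 samples, and thin lines join samples with the same replicate number. LRIG3 and ERBB2 are higher at the treated end of all 6 joining lines, ERRFI1 in untreated SCC6 spreads from 41.2 to 123 CPM, and LRIG1 lies near 0 outside SCC25.

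To establish the baseline of the family, the untreated lines were compared with one another. SCC25 had the lowest ERBB2 and ERBB3 and the highest LRIG1 and LRIG3, and EGFR did not separate the lines in the main test. ERBB2 was lower in SCC25 than in SCC1 by a log2 difference of -1.52 ± 0.20 (SE, n = 2 per group; edgeR quasi-likelihood test with Benjamini-Hochberg adjustment over all 17897 genes, adjusted p = 0.0003) and than in SCC6 by -1.27 ± 0.20 (edgeR adjusted p = 0.000849). ERBB3 followed the same order, at -1.22 ± 0.21 against SCC1 (edgeR adjusted p = 0.00139) and -1.15 ± 0.21 against SCC6 (edgeR adjusted p = 0.00193). SCC1 and SCC6 did not differ beyond their spread in either receptor, with log2 differences of -0.25 ± 0.20 (edgeR adjusted p = 0.351) for ERBB2 and -0.07 ± 0.21 (edgeR adjusted p = 0.838) for ERBB3, although the ERBB2 difference was -0.59 (edgeR adjusted p = 0.0341) when library totals were used without TMM.

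LRIG3, LRIG1 and ERRFI1 had other orders. LRIG3 was higher in SCC25 than in SCC1 by 1.02 ± 0.22 on the log2 scale (edgeR adjusted p = 0.00395) and than in SCC6 by 0.80 ± 0.21 (edgeR adjusted p = 0.013), and the latter call was lost without untreated SCC6 replicate 1 (0.69, edgeR adjusted p = 0.0758) or untreated SCC25 replicate 2 (0.65, edgeR adjusted p = 0.0854). LRIG3 in SCC6 and SCC1 differed by 0.22 ± 0.22 (edgeR adjusted p = 0.452). LRIG1 counted 103 UMIs in untreated SCC25 and 4 in untreated SCC1, a fitted log2 difference of 4.52 ± 0.69 that rests on the 4 UMIs of SCC1. In the non-cycling cells the difference was 1.98 (edgeR adjusted p = 0.0599). Only its SCC25 counts took LRIG1 past the filter on low counts. The direction of its SCC25 contrasts was therefore fixed beforehand, and its calls there are not read as support. Against untreated SCC6, with 0 UMIs, LRIG1 was at least 32.9-fold higher in SCC25, from 0.562 CPM over the group and a floor of 3 UMIs over the untreated SCC6 group. ERRFI1 was lower in SCC25 than in SCC6 by -1.21 ± 0.41 on the log2 scale (edgeR adjusted p = 0.0374). That call rested on untreated SCC6 replicate 1, without which the difference was -0.22 (edgeR adjusted p = 0.584), and it was also lost without untreated SCC25 replicate 1 (-1.37, edgeR adjusted p = 0.0814) or 2 (-1.08, edgeR adjusted p = 0.154) and with library totals (-1.04, edgeR adjusted p = 0.0576). ERRFI1 in SCC1 lay between, at a log2 difference of -0.90 ± 0.41 for SCC25 against SCC1 (edgeR adjusted p = 0.103) and 0.31 ± 0.41 for SCC6 against SCC1 (edgeR adjusted p = 0.579), the latter 0.90 without untreated SCC6 replicate 2 (edgeR adjusted p = 0.0314). The ERRFI1 difference of SCC25 from SCC1 was called in 4 of 22 settings, among them no filter on low counts (-0.90, edgeR adjusted p = 0.0359) and library totals (-1.09, edgeR adjusted p = 0.0458).

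EGFR was 0.54 ± 0.22 higher on the log2 scale in SCC25 than in SCC1 (edgeR adjusted p = 0.0781) and 0.47 ± 0.22 higher in SCC6 than in SCC1 (edgeR adjusted p = 0.12). With the replicate number as a block, these became 0.54 ± 0.18 (edgeR adjusted p = 0.024) and 0.49 ± 0.18 (edgeR adjusted p = 0.0371), so that SCC1 had the lowest EGFR in that fit. DESeq2 gave 0.58 for SCC25 against SCC1 (DESeq2 adjusted p = 0.0391). SCC25 and SCC6 differed by 0.07 ± 0.22 without the block (edgeR adjusted p = 0.831). Of the 7 genes, 0 were called between SCC6 and SCC1, 4 between SCC25 and SCC1 and 5 between SCC25 and SCC6. The called genes of both SCC25 contrasts include LRIG1, which passed the filter only through SCC25. The background was high in these contrasts, with 40.2%, 40.8% and 40.9% of all genes called, and the counts of 2, 5 and 5 with the block stood beside 53.8%, 54.7% and 54.4% of all genes. The 2 called between SCC6 and SCC1 with the block were EGFR and LRIG1 (edgeR adjusted p = 0.0465 for LRIG1, on 4 and 0 UMIs). DESeq2 also called 0 of the 7 genes between SCC6 and SCC1, and with edgeR only LRIG1, with 4 and 0 UMIs and so without a fold, had an unadjusted p-value under 0.05 there. CD68 and LUM were higher in untreated SCC25 than in the other lines, at 165 and 205 CPM for CD68 and 8.57 and 30.6 CPM for LUM against at most 30.5 CPM and 0.218 CPM in untreated SCC1 and SCC6, and their part in the ERBB differences was not tested.

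Neighbouring genes were read to see whether a level followed its locus. STARD3, which lies near ERBB2 but not directly next to it and encodes a cholesterol-binding protein, was lower in SCC25 than in SCC1 by -0.97 ± 0.17 (edgeR adjusted p = 0.00135) and lower in SCC6 than in SCC1 by -0.58 ± 0.17 (edgeR adjusted p = 0.0199). GRB7, an adaptor gene near ERBB2 on its other side, went a different way, higher in SCC6 than in SCC1 by 1.21 ± 0.31 (edgeR adjusted p = 0.011) and lower in SCC25 than in SCC6 by -2.01 ± 0.32 (edgeR adjusted p = 0.000779). Beside 40.2 to 40.9% of all genes called in these contrasts, 1 of the 7 genes around ERBB2 was called between SCC25 and SCC1 and 2 in each of the other contrasts. Of the 5 genes around ERBB3, 2 rose in SCC6 against SCC1, 0 were called between SCC25 and SCC1, and 1 rose and 1 fell in SCC25 against SCC6. For EGFR, 0 of the 3 measured neighbours were called in any untreated contrast.

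The response to cetuximab was then compared with PBS within each line. LRIG3 was the one member called in the main test, and it rose in SCC6, where the treated samples had 2.43 times the untreated level. The log2 change of LRIG3 in SCC6 was 1.28 ± 0.22 (SE, n = 2 per group, edgeR adjusted p = 0.0149), and with the replicate block it was 1.29 ± 0.19 (edgeR adjusted p = 0.00429). In SCC1 the LRIG3 change was 0.41 ± 0.22 (edgeR adjusted p = 0.663) and in SCC25 0.50 ± 0.21 (edgeR adjusted p = 0.825). Over the 3 lines together LRIG3 rose by 0.73 ± 0.16 (edgeR adjusted p = 0.0326) and was higher in 6 of 6 pairs. The SCC6 call was lost without SCC6 treated replicate 1 (1.26, edgeR adjusted p = 0.0937), without untreated replicate 1 (1.17, edgeR adjusted p = 0.142) and when SCC6 was fitted on its own (1.30, edgeR adjusted p = 0.0739). The call over the lines was lost when any of 9 of the 12 libraries was left out (0.62 to 0.78, edgeR adjusted p from 0.0501 to 0.0915), the exceptions being SCC1 treated replicate 2 and both replicates 2 of SCC25, and in sums of thinned cells (0.69, edgeR adjusted p = 0.0709).

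ERBB2 values were of similar size in each line and none passed the main test. The log2 change of ERBB2 was 0.46 ± 0.20 in SCC1 (edgeR adjusted p = 0.549), 0.42 ± 0.20 in SCC6 (edgeR adjusted p = 0.272) and 0.31 ± 0.20 in SCC25 (edgeR adjusted p = 0.961). Over the lines it was 0.40 ± 0.11 (edgeR adjusted p = 0.0599), and with the replicate block it rose by 0.40 ± 0.07 (edgeR adjusted p = 0.0152). The block also brought the SCC6 change past the threshold (0.42 ± 0.12, edgeR adjusted p = 0.0418), a call made in 2 of 27 settings and lost when the block was combined with non-cycling cells (0.31, edgeR adjusted p = 0.156), no filter (edgeR adjusted p = 0.0627) or 1 term shared by the lines (edgeR adjusted p = 0.0777). DESeq2 called the change over the lines (0.40, DESeq2 adjusted p = 0.00438). In the non-cycling cells alone, ERBB2 rose by 0.34 over the lines with the block (edgeR adjusted p = 0.0186) and was not called without the block. The ERBB2 change over the lines was called in 8 of 26 settings.

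ERRFI1 had the largest fitted difference of the 5 genes with enough UMIs in every line, a log2 value of -1.61 ± 0.42 in SCC6 (edgeR adjusted p = 0.0608). With the replicate block it fell there, at -1.41 ± 0.36 (edgeR adjusted p = 0.0299), and DESeq2 gave -1.63 (DESeq2 adjusted p = 0.00406). In the non-cycling cells of SCC6 it fell as well, at -1.87 (edgeR adjusted p = 0.0315). The ERRFI1 change in SCC6 was called in 9 of 27 settings and not in the main test. The size of the SCC6 value depended on 1 library: it was -0.62 without untreated replicate 1, the sample at 123 CPM, and -2.20 without untreated replicate 2 (edgeR adjusted p = 0.00747). In SCC1 and SCC25 ERRFI1 changed by -0.00 ± 0.41 and 0.05 ± 0.41 (edgeR adjusted p = 1.0 for both), and over the lines by -0.51 ± 0.32 (edgeR adjusted p = 0.395). CD68 stood at 30.5 and 13.2 CPM in untreated and 3.30 and 4.14 CPM in treated SCC6, the same order of samples as ERRFI1 between the groups and in the untreated pair, and its part was not tested.

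EGFR itself did not pass the test in any line, with log2 changes of 0.10 ± 0.22 in SCC1, -0.13 ± 0.22 in SCC6, 0.25 ± 0.22 in SCC25 and 0.08 ± 0.13 over the lines (edgeR adjusted p = 0.787). The log2 change of ERBB3 was 0.33 ± 0.21 in SCC1 (edgeR adjusted p = 0.767). It was -0.13 ± 0.21 in SCC6, -0.18 ± 0.21 for SCC25 and 0.00 ± 0.13 over the lines, with higher adjusted p-values. The SCC6 values of both receptors turned to 0.10 and 0.09 with library totals without TMM, a scaling that moved the median of all genes by 0.23 in SCC6, 0.11 over the lines, 0.05 in SCC1 and 0.02 in SCC25. The same scaling moved the median of the untreated contrasts by -0.31 for SCC6 against SCC1, -0.15 for SCC25 against SCC1 and 0.15 for SCC25 against SCC6. LRIG1 changed by 0.85 ± 0.48 in SCC25 (edgeR adjusted p = 0.93), and ERBB4 by 0.64 ± 0.93 there, on 23 untreated and 37 treated UMIs (edgeR adjusted p = 1.0). For SCC1 and SCC6, with 7 and 21 ERBB4 UMIs in all, no fold is given.

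In the main test 1 of the 7 genes was called in SCC6, higher, where 3.81% of all genes were called and 2.51% were called higher, and 1 was called over the lines, higher, beside 3.67% and 2.53% of all genes. In SCC1 0 of the 7 were called beside 0.0168% of all genes, and in SCC25 0 beside 0.0% of all genes. For SCC25 the tool was edgeR, 1041 genes had an unadjusted p under 0.05 and DESeq2 called 101 genes, and for SCC1 these counts were 1570 and 274. With the replicate block the calls in SCC6 were LRIG3 and ERBB2 higher and ERRFI1 lower, beside 20.1% of all genes called, 9.94% higher and 10.1% lower. Over the lines the block called LRIG3 and ERBB2, both higher, beside 11.6% of all genes and 6.03% higher, and it called 0 of the 7 in SCC1 and SCC25 beside 4.45% and 0.978% of all genes. A level that was higher in 6 of 6 pairs, as for ERBB2 and LRIG3, was found in 10.5% of all genes tested.

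**Figure D2:**
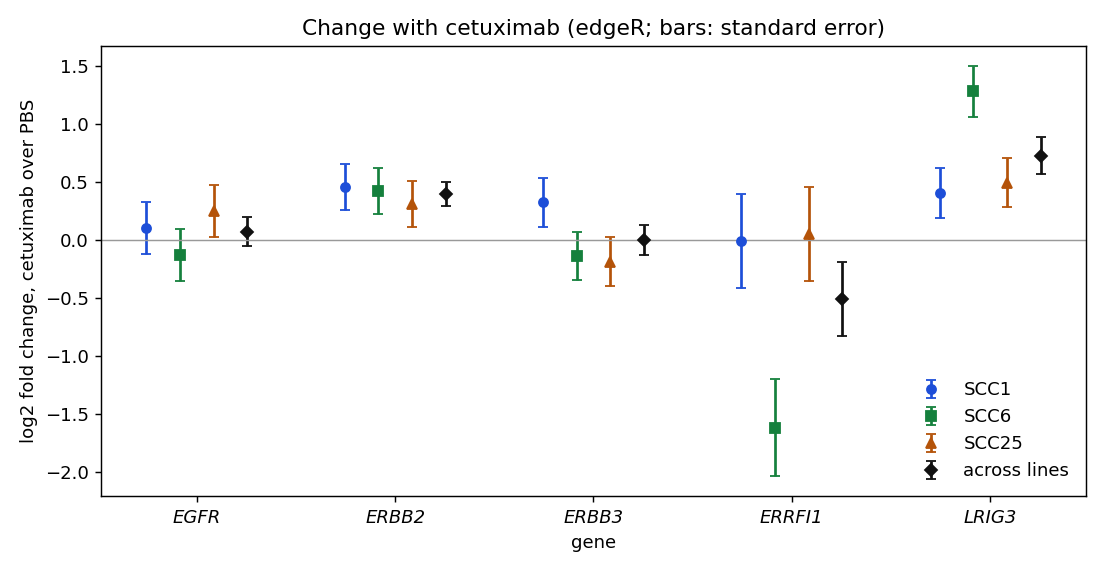
Log2 fold change of cetuximab over PBS (y axis) for the 5 genes with enough UMIs in every line (x axis), from edgeR. Circles, squares and triangles are SCC1, SCC6 and SCC25, black diamonds the 3 lines together, and bars 1 standard error. LRIG3 in SCC6 lies at 1.28 and ERRFI1 in SCC6 at -1.61, while the ERBB2 values lie between 0.31 and 0.46.

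An interaction term of line with treatment asked whether the lines differed in their response. Of the 7 genes, 0 were called beside 0.0% of all genes with edgeR, which found 1318 genes with an unadjusted p under 0.05, while DESeq2 called 276 genes. The lowest adjusted values were those of ERRFI1 (edgeR adjusted p = 0.59, with the block 0.227) and LRIG3 (edgeR adjusted p = 0.619, with the block 0.194), beside 1.29% of all genes called with the block. ERBB3, with its opposite directions in SCC1 and SCC6, had an edgeR adjusted p of 0.913 (0.276 with the block). The rise of LRIG3 in SCC6 was therefore not shown to differ from its change in the other lines, nor was the fall of ERRFI1 with the block.

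The share of positive cells asks the same question cell by cell, with each of 23063 cells thinned to 15000 UMIs and 851 shallower cells left out (74 and 56 of untreated and treated SCC1, 129 and 276 of SCC6, 203 and 113 of SCC25). Thinned shares keep library totals as their scale, without TMM. LRIG3-positive cells were more frequent after cetuximab in every line. In SCC6 the share of LRIG3-positive cells was 3.70% (95% exact binomial interval 3.01 to 4.49%) and 5.30% (4.44 to 6.26%) untreated and 12.3% (11.1 to 13.7%) and 12.7% (11.1 to 14.4%) treated. In SCC1 it was 5.27% (4.08 to 6.68%) and 5.67% (4.60 to 6.90%) untreated and 7.36% (5.77 to 9.22%) and 6.16% (4.94 to 7.58%) treated. In SCC25 it was 8.04% (6.94 to 9.26%) and 8.79% (7.71 to 9.97%) untreated and 12.6% (11.1 to 14.1%) and 10.2% (8.94 to 11.7%) treated. Over the lines the difference was 4.10 percentage points, and the exact two-sided permutation test within lines gave p = 0.00926, the smallest that its 216 arrangements allow. Intervals cover counting error only, and within 1 line 2 samples against 2 cannot give a p below 0.333.

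For ERBB2 the positive share was 31.2% ± 1.31 (SD, n = 2) in untreated and 43.7% ± 0.477 in treated SCC1, 22.0% ± 0.934 and 31.4% ± 1.10 for SCC6, and 11.5% ± 0.743 and 13.6% ± 2.82 for SCC25. The difference over the lines was 7.97 points (exact permutation p = 0.0185), with all 6 pairs in the same direction. For LRIG3 and ERBB2 alike, the share of all genes with such a p or with 6 of 6 pairs higher in positive cells was not counted. The scale of these shares, library totals without TMM, moved the median log2 change of all genes by 0.23 in SCC6 and 0.11 over the lines. EGFR-positive cells made up 64.7% ± 3.31 of untreated and 67.9% ± 3.66 of treated SCC1, 66.5% ± 0.286 and 69.9% ± 2.43 of SCC6, and 72.0% ± 2.78 and 77.0% ± 5.92 of SCC25. The EGFR difference of 3.85 points had an exact permutation p of 0.0648. The exact sign-flip test over the 6 replicate pairs, the block form of the test, gave p = 0.0312, the smallest that its 64 sign flips allow. At 1 or more UMIs the EGFR share thus passed the test with the pairing and not without it. It did not pass without thinning (2.47 points, exact permutation p = 0.343) or in non-cycling cells (3.99 points, exact permutation p = 0.13). The EGFR share was higher in 6 of 6 pairs, whereas its TMM-scaled CPM was higher in 5 of 6. The CPM of EGFR passed neither fit.

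ERBB3-positive cells were 29.2% ± 1.83 of untreated and 37.3% ± 5.04 of treated SCC1, 23.2% ± 2.78 and 25.2% ± 1.27 of SCC6, and 13.6% ± 1.66 and 11.3% ± 1.76 of SCC25, a difference of 2.63 points (exact permutation p = 0.231). ERRFI1-positive cells were 59.0% ± 2.18 of untreated and 60.5% ± 1.94 of treated SCC1, 52.1% ± 15.6 and 30.8% ± 0.902 of SCC6, and 33.3% ± 4.42 and 36.2% ± 8.12 of SCC25, a difference of -5.60 points (exact permutation p = 0.38). LRIG1 was found in 0.962% ± 0.513 of untreated and 1.34% ± 0.469 of treated SCC25 cells. In SCC6 it was found in 0 cells of every sample, which allows a share of cells with a UMI of up to 0.113 to 0.183% per sample. ERBB4 did not exceed 0.401% of cells in any sample. The differences were 0.113 points for LRIG1 (exact permutation p = 0.611) and 0.0552 points for ERBB4 (exact permutation p = 0.361). These 7 tests are given without adjustment.

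As background, 4 genes of blood and liver cells that these lines should lack (PTPRC, CD3E, ALB and HBB) reached at most 0.183% of thinned and 0.345% of unthinned cells in a sample. The LRIG1 shares of SCC1 were under that level and are read as background, as are those of ERBB4 outside replicate 2 of untreated and treated SCC25 (0.320 and 0.401%) and treated replicate 1 of SCC6 (0.231%). Without thinning, group means ran from 87.7 to 96.4% for EGFR, 25.1 to 81.5% for ERBB2, 28.4 to 74.7% for ERBB3, 54.7 to 91.3% for ERRFI1 and 10.9 to 29.1% for LRIG3.

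**Figure D3:**
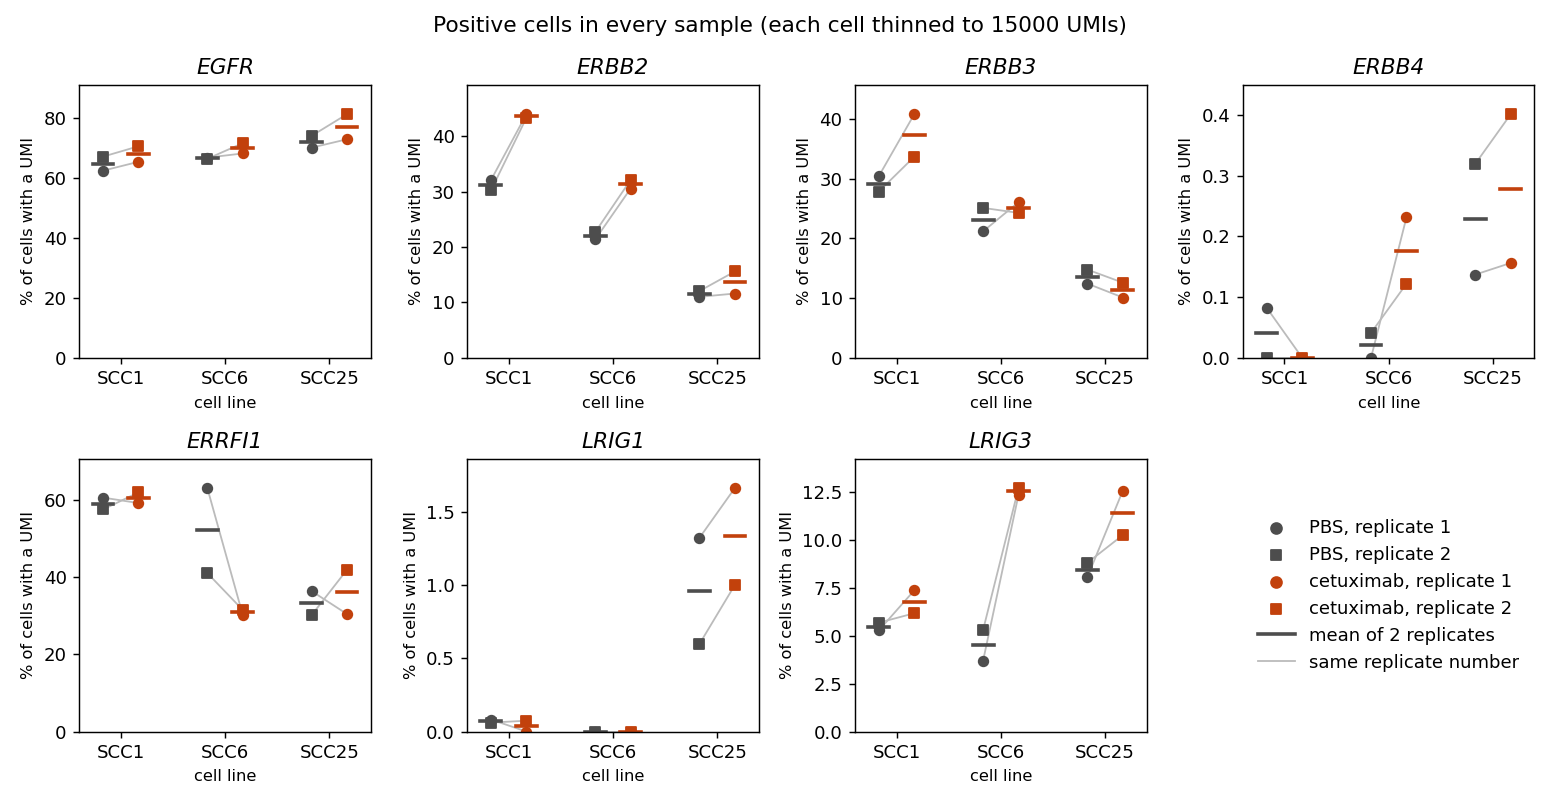
Share of cells with at least 1 UMI of each gene after thinning to 15000 UMIs per cell (y axis, percent, from 0) in the 3 cell lines (x axis), with colours, symbols, bars and lines as in the plot of levels. The LRIG3 share averages 4.50% in untreated and 12.5% in treated SCC6, the ERBB2 share 31.2 and 43.7% in SCC1, and LRIG1 is at 0 in SCC6.

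Receptors that can pair were also counted in the same cell. Cells with a UMI of each of EGFR, ERBB2 and ERBB3 made up 7.41 and 5.43% of untreated and 15.1 and 11.7% of treated SCC1. In SCC6 they made up 3.05 and 3.86% untreated and 5.48 and 6.47% treated. In SCC25 they made up 1.14 and 1.84% untreated and 0.938 and 1.86% treated. The treated values lay above the untreated ones in SCC1 and SCC6 and overlapped in SCC25. Cells with none of the 3 receptors were fewer after cetuximab in each of the 6 pairs, from 19.0 and 16.1% to 14.2 and 12.8% for SCC1, from 20.02 and 19.2% to 15.5 and 14.9% for SCC6 and from 24.4 and 20.7% to 22.4 and 13.8% for SCC25. A cell with no UMI at this depth may still express the gene, and these shares were not tested. They come from the same thinned cells and UMIs as the shares of the single genes, so they are not separate evidence. Their scale is library totals without TMM, which moved the median log2 change of all genes by 0.23 in SCC6 and 0.11 over the lines. Other sets of genes were not counted in the same way.

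Within each sample, the genes were set against the cell cycle, as a description without a test. EGFR was lower in cycling than in non-cycling cells in 12 of 12 samples, with log2 ratios of -0.64 to -0.07 (median -0.23). Over 8177 genes with at least 20 UMIs in both kinds of cell in every sample, 10.9% were lower in cycling cells in all 12 samples, 18.9% were higher in all, and the median ratio was 0.01. ERBB2 was higher in cycling cells in 2 of 12 samples (median -0.41), ERBB3 in 1 of 12 (median -0.27) and ERRFI1 in 1 of 12 (median -0.30). LRIG3 was higher in 4 of the 11 samples with enough UMIs (median -0.03).

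**Figure D4:**
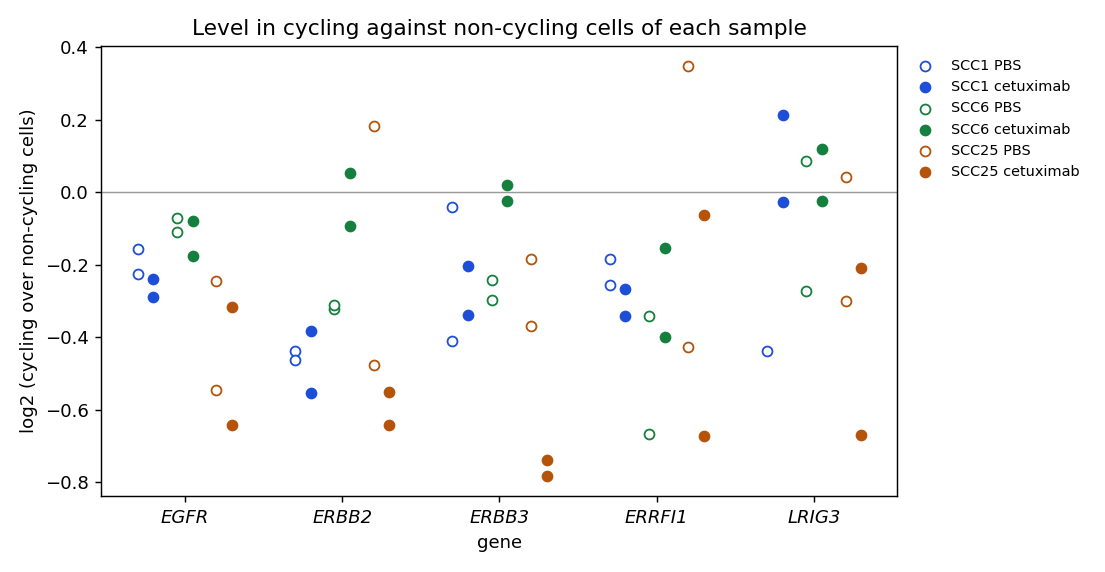
Log2 ratio of the level in cycling over non-cycling cells of the same sample (y axis) for 5 genes (x axis). Each point is 1 sample, open for untreated and filled for treated, blue for SCC1, green for SCC6 and orange for SCC25. All 12 EGFR points lie below 0, and the LRIG3 points scatter around -0.03.

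The study classified cells by VIM, the vimentin gene used as a marker of epithelial-to-mesenchymal transition, so the 4 untreated samples of SCC6 and SCC25 were divided by VIM after thinning, again without a test. EGFR, ERBB2 and ERBB3 were lower in VIM-positive than in VIM-negative cells in 4 of 4 samples, with median log2 ratios of -0.18, -0.12 and -0.17. Some of these ratios were nearly nil: -0.0099 for ERBB2 in SCC6 replicate 1 and -0.0088 for ERBB3 in SCC25 replicate 1. EGFR differed most in SCC25, where the ratios were -0.32 and -0.36, against -0.01 and -0.03 in SCC6. ERRFI1 and LRIG3 were higher in VIM-positive cells in 3 of 4 samples, with medians of 0.09 and 0.11. LRIG1 in untreated SCC25 had 27 UMIs in 1725 VIM-positive cells against 2 in 463 VIM-negative cells of replicate 1, and 15 in 1361 against 0 in 1142 cells of replicate 2. Of 9461 genes compared in the same way, 8.45% were lower and 11.5% higher in VIM-positive cells in all 4 samples.

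The wider pathway was described by lists of genes. In SCC6, 3.81% of all genes were called with cetuximab in the main test. With the block 20.1% were called, 9.94% higher and 10.1% lower. Among the ligands of EGFR and ERBB4, 3 of 10 tested fell with cetuximab in SCC6 and 0 rose, with a list median of -1.22 against 0.00 for all genes. The ligands summed to 1012.9 CPM in untreated replicate 1 and 271 CPM in untreated replicate 2, and to 29.1 and 72.1 CPM in the treated samples. EREG (epiregulin) fell by -3.38 ± 0.57 on the log2 scale (edgeR adjusted p = 0.0144) and AREG (amphiregulin) by -4.53 ± 0.78 (edgeR adjusted p = 0.0162). With the block, 4 ligands fell and EGF rose (2.45 ± 0.61, edgeR adjusted p = 0.026). The UMI counts of EGF are not given, so this fold may rest on few UMIs. Of 18 genes of MAPK output and feedback, the class to which ERRFI1 belongs by function, 4 fell in SCC6 and 0 rose (median -0.73), and 7 fell with the block. PHLDA1, an early growth factor response gene, fell by -3.81 ± 0.60 (edgeR adjusted p = 0.0113) and DUSP4, a MAPK phosphatase, by -2.42 ± 0.48 (edgeR adjusted p = 0.0259). The MAPK list summed to 2588.5 and 1616.9 CPM in the untreated and 1073.7 and 1473.8 CPM in the treated SCC6 samples. In both lists untreated replicate 1 was the highest SCC6 sample. The falls of these lists and of the genes named from them are given only with that sample included.

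Adaptors and kinases carry the signal below the receptors. In SCC6, where 3.81% of all genes were called in the main test and 20.1% with the block (9.94% higher and 10.1% lower), 1 of 29 rose, PLCG1 (phospholipase C gamma, 1.04 ± 0.24, edgeR adjusted p = 0.0441), 0 fell, and the median was -0.02. With the block 6 rose, including SRC (0.72 ± 0.13, edgeR adjusted p = 0.00742). Of 28 genes of receptor turnover and dephosphorylation, 0 were called in SCC6 in the main test (median -0.15). With the block 2 rose, PTPRK (a receptor phosphatase, 0.97 ± 0.16, edgeR adjusted p = 0.006) and CBLB (a ubiquitin ligase of the CBL family, 0.56 ± 0.14, edgeR adjusted p = 0.0246), and 4 fell, among them RIN1 (-1.58 ± 0.23, edgeR adjusted p = 0.00394) and CBLC (-0.92 ± 0.17, edgeR adjusted p = 0.0105). GRB7, near ERBB2, fell in SCC6 with the block (-1.11 ± 0.21, edgeR adjusted p = 0.0104), the opposite direction from ERBB2 in the same fit.

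In SCC1 and SCC25, 0 genes of these 4 lists were called in the main test, beside 0.0168% and 0.0% of all genes. The block called 4.45% of all genes in SCC1 and 0.978% in SCC25. With the block, SCC1 had EGF higher (4.65 ± 0.76, edgeR adjusted p = 0.0167), PTPRK higher (0.97 ± 0.16, edgeR adjusted p = 0.0175), DUSP6, a MAPK phosphatase, lower (-0.85 ± 0.18, edgeR adjusted p = 0.0402) and all 10 cell cycle genes lower, and SCC25 had 0 genes of the 4 lists called. The EGF fold in SCC1 may rest on few UMIs, since its counts are not given, and its size is not read as a strong induction. Over the lines, where 3.67% of all genes were called in the main test and 11.6% with the block, EREG fell (-1.96 ± 0.45, edgeR adjusted p = 0.0354), SRC rose (0.60 ± 0.10, edgeR adjusted p = 0.0141), PTPRK rose (0.94 ± 0.14, edgeR adjusted p = 0.00903) and RIN1 fell (-0.97 ± 0.24, edgeR adjusted p = 0.0495), beside list medians of -0.59 for ligands, 0.03 for adaptors and kinases, -0.03 for turnover and -0.29 for MAPK output, and 0.01 for all genes. LUM rose with the block in every line, from 0.0140 and 0.0105 CPM to 0.153 and 0.160 CPM in SCC1 (edgeR adjusted p = 0.0141), and by 1.66 ± 0.25 in SCC6 (edgeR adjusted p = 0.00454) and 1.00 ± 0.13 in SCC25 (edgeR adjusted p = 0.0202), and over the lines by 1.36 ± 0.24 (edgeR adjusted p = 0.0152), and its part in the changes of LRIG3, ERBB2 and ERRFI1 was not tested.

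Last, the genes whose level varied most like each member were named, from Pearson r over the 12 samples after the mean of each line was taken away, among 5314 genes with a mean of at least 20 CPM. These points share lines, treatment and depth, and r is given as a description. LRIG3 was closest to MMP14, a membrane matrix metalloproteinase (r = 0.985), ARFGAP1 (0.982) and SLC31A2 (0.978). ERBB2 was closest to PDLIM1 (0.961), MBTPS1 (0.955) and CLIC3 (0.953), and ERRFI1 to the kinase gene PIM3 (0.962), the heat shock gene DNAJB1 (0.954) and SH2D3A (0.949). EGFR was closest to SLC41A3 (0.928), UBAP1 (0.913) and TWF1 (0.901), and ERBB3 to AKR1C2 (0.850), BORCS7 (0.839) and PHLDA3 (0.829). Of the 2 genes with few UMIs, LRIG1 was closest to EIF5A2 (0.881), DCBLD2 (0.833) and DDA1 (0.793), and ERBB4 to SLC1A3 (0.874) and BAMBI (0.836). Among the members, ERBB2 and LRIG3 varied together (r = 0.745), ERRFI1 varied against LRIG3 (-0.759), and EGFR had values of 0.462 with ERBB2 and -0.07 with LRIG3.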

How the data were processed

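Single-cell libraries (10x Genomics 3′ v2) of SCC1, SCC6 and SCC25 were analysed from the UMI counts per gene and cell that the authors deposited, 1 matrix per line. Per the submitters' processing notes the authors used Cell Ranger and GRCh38, with no version given in the sources used here. Rows with the same symbol were summed (33538 rows, 33514 symbols), all 23914 deposited cells were kept, and no doublet caller was run and no cells were clustered. Counts were summed per sample, since cells are not replicates. Genes were filtered by filterByExpr and tested in R 4.3.3 with edgeR 4.0.16 and its quasi-likelihood test (TMM, 1 mean per group, 6 residual degrees of freedom, and line plus treatment for the change over the lines), with Benjamini-Hochberg adjustment over 17897 genes and a threshold of 0.05. A call is an adjusted p under that threshold. Groups came from the sample titles. Positive shares used cells thinned without replacement to 15000 UMIs (the 10th percentile of the shallowest sample, rounded down), with intervals at 95% (Clopper-Pearson) and exact permutation tests (Python 3.11.15, numpy 2.4.6, scipy 1.17.1, pandas 2.3.3).

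The replicate numbers of the titles were checked as pairs: deviations of treated and untreated samples with the same number from their group means correlated at r = 0.377 in SCC1, 0.349 in SCC6 and 0.598 in SCC25 over 17897 genes. All 3 exceeded 0.1, so the numbers were taken to pair the samples, although the labels do not say what a number marks. Each r compares 1 difference between replicates per treatment, over genes that vary together, so it cannot establish the pairing. The results with the block and the sign-flip test rest on this assumption. The block was the replicate number within each line (3 residual degrees of freedom), and 1 replicate term shared by the lines for the untreated contrasts.

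Alternatives were DESeq2 1.42.0, its size factors, library totals, no filter, other sets of cells, the block and each replicate left out. The steps were tested on simulated data. The members and lists were chosen with earlier results of these data known. The genes named were all members, the 3 genes most like each (1 of them is not reported here) and at most 2 called genes per list and direction. Promoters are those of RefSeq on GRCh38.p14.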

Additional observations from a re-analysis of the deposited data

Results flagged for a closer look

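ERBB3 lay on opposite sides of the untreated level after cetuximab in 2 lines. Its log2 change was 0.33 in SCC1, where both treated samples lay above both untreated ones, and -0.13 in SCC6, where both lay below. The nearest SCC6 values were 19.0 CPM treated and 19.5 CPM untreated. An exact permutation test of 2 samples against 2 cannot give a p below 0.333, and the share of all genes without overlap was not counted. By this comparison of directions the difference was not tested. The interaction of line and treatment over the 3 lines gave an edgeR adjusted p of 0.913, and 0.276 with the replicate block, and the SCC6 value was 0.0917 with library totals without TMM.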

How the results depend on the processing

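Alternatives were computed for the changes and baseline differences of each gene with at least 20 UMIs in the samples compared. Of 730 such values, 646 kept their direction and side of the threshold, 26 passed it, 20 no longer did and 38 changed sign. The alternatives beyond those planned (library totals without TMM and 4 forms of the replicate block) were chosen after seeing the data. Leaving out a library can leave 1 sample in a group, which is then assumed to vary like the others.

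The number of the 7 genes called in SCC6 was 1 and became 3 with the replicate block, 2 with DESeq2, with no filter on low counts and in non-cycling cells, and 0 in a fit to the line alone. Combined with the block, non-cycling cells gave 2, leaving out cells over 20% mitochondrial UMIs 3, no filter 2 and 1 replicate term shared by the lines 2, and leaving out single libraries gave 0 to 2. Between untreated SCC6 and SCC1 the count of 0 became 2 with the block, 1 with library totals and 0 to 1 without single libraries. Between untreated SCC25 and SCC6 it was 3 to 5 without single libraries. Over the lines the count of 1 became 2 with the block and each of its 4 forms, with DESeq2 and with library totals, 0 in sums of thinned cells and 0 to 1 without single libraries. The count of 4 between untreated SCC25 and SCC1 was 5 with the block, DESeq2, no filter and library totals, and 3 in non-cycling cells. The calls of members that the block changed are given beside the results. The cause of these shifts was not tested, but fewer samples or cells enter the fits without libraries and with thinned cells.

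The EGFR share of positive cells differed by 6.49 points at 2 or more UMIs (exact permutation p = 0.0278), by 3.85 with the pairing (exact p = 0.0312) and by 2.45 to 5.24 without single libraries. It differed by 2.47 points without thinning (exact permutation p = 0.343) and by 3.99 in non-cycling cells (exact permutation p = 0.13). The LRIG3 share differed by 0.639 points at 2 or more UMIs (exact permutation p = 0.0556). The LRIG1 share ranged from -0.00827 to 0.234 points without single libraries, the lowest without untreated SCC25 replicate 2.

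The changes of sign were as follows. ERRFI1 in SCC1 was 0.0057 with DESeq2 and with its size factors, 0.0169 with no filter, 0.0015 without the 5% of cells with most UMIs, 0.0265 in non-cycling cells, 0.0459 in thinned cells, 0.0029 in the line alone, 0.0467 with library totals, and with the block 0.0284 in non-cycling cells and 0.0165 with no filter. With library totals EGFR and ERBB3 in SCC6 were 0.10 and 0.0917, and ERRFI1 and LRIG3 between untreated SCC6 and SCC1 were -0.0485 and -0.11. ERBB3 between these lines was 0.0416 in non-cycling cells. ERBB3 over the lines was -0.0035 without cells over 20% mitochondrial UMIs, -0.0878 in non-cycling cells, and with the block -0.0851 in non-cycling cells and -0.0064 without the mitochondrial-rich cells. Without single libraries EGFR ranged from -0.0531 to 0.24 in SCC1, -0.26 to 0.0092 in SCC6, -0.0117 to 0.13 over the lines and -0.10 to 0.22 between untreated SCC25 and SCC6. ERBB3 ranged from -0.0869 to 0.0726 over the lines and -0.15 to 0.0138 between untreated SCC6 and SCC1, ERBB4 from -0.80 to 1.34 in SCC25 (6 to 31 UMIs a sample), and ERRFI1 from -0.0544 to 0.0393 in SCC1, -0.28 to 0.34 in SCC25 and -0.69 to 0.90 between untreated SCC6 and SCC1. ERBB4 held 0 to 31 UMIs and LRIG1 0 to 117 UMIs per sample.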
